A study of Mus musculus with 20 samples.

Results

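The change of the TGFβ1 effect between 6 and 10 h was measured in Hepa1-6 cells as a difference of differences, namely treated minus untreated cells at 10 h less treated minus untreated cells at 6 h. It rests on 8 of the 20 arrays of the series, chosen by the treatment, time and replicate in their titles, with 2 arrays in each of 4 groups. The groups were cells with 1 ng/ml TGFβ1 for 10 h, untreated cells at 10 h, cells with 1 ng/ml TGFβ1 for 6 h and untreated cells at 6 h. Cells of every group had spent 4 h without growth factors before the first time point, so treated and untreated cells alike started from depleted medium. Hepa1-6 is an established mouse hepatoma line of the C57L strain, so the values describe transformed liver cells in culture and not hepatocytes in an organ. The labels give the arrays of a group as biological duplicates. The other arrays, at 0, 1 and 3 h, entered the estimate of the spread, and those at 1 and 3 h give the earlier course of the genes described here.

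TGFβ1 binds a pair of receptor kinases, which phosphorylate the transcription factors SMAD2 and SMAD3. These enter the nucleus with SMAD4 and act on target genes together with partners such as AP-1 and TEAD factors. Several early targets, among them Smad7, Skil and Ldlrad4, encode inhibitors of the same pathway. In liver cells TGFβ is known for slowing division, for matrix and cytoskeleton genes and, over longer times, for changes of cell identity.

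The array values are log2 expression values. The effect at a time is the mean of the treated arrays minus the mean of the untreated arrays, and the change is the effect at 10 h minus the effect at 6 h. A positive change therefore means that an induction grew or that a repression shrank, and a negative change the reverse. Differences were tested with limma over 18193 genes, each by 1 probe set, and a gene passed with a Benjamini-Hochberg adjusted p under 0.05. Gene levels had a median between 6.29 and 6.35 on the 20 arrays, and differences of genes below it may be limited by background. RMA, by which the values were made, aligns the arrays to each other, so each difference is relative to the other transcripts. In a culture, fewer cells of a kind and less RNA per cell cannot be told apart.

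The labelled cell type was checked on marker genes. Albumin (Alb) averaged 11.91 in treated and 12.40 in untreated cells at 10 h, and 11.92 and 12.31 in the same groups at 6 h. Alpha-fetoprotein (Afp), which hepatomas keep from fetal liver, averaged 12.43 in treated and 12.97 in untreated cells at 10 h, and 12.45 and 12.91 at 6 h. Alb and Afp do not stand for the whole list. Of 13 hepatocyte markers, 4 lay above the gene median on all 8 arrays and in 0 did the effect change, with 2 at an unadjusted p under 0.05. The 13 include Trh, the gene of thyrotropin-releasing hormone, which is no hepatocyte marker, so its level is not read here. Ahsg, Apob, Apoh, Tat and Ttr averaged below the gene median in every group, as did the median of the 13. The share of all genes above the median on all 8 arrays was not counted, so the counts for these lists have no background to be set against. Of 12 endothelial markers 0 lay above the gene median on all 8 arrays, of 11 macrophage and leukocyte markers 1 did (Cd14), of 14 stellate cell and fibroblast markers 2 did (Dcn and Des), and of 8 cholangiocyte markers 4 did (Epcam, Krt7, Prom1 and Sox9). The matrix proteoglycan gene Dcn was high in every group, at 13.42 in treated and 13.43 in untreated cells at 10 h. Among the markers of these 5 lists, Sox9 was the 1 whose effect changed (−0.42, adjusted p = 0.0127). The summed level of the cholangiocyte markers was 11.91 in treated cells and 11.36 to 11.42 in untreated cells at 10 h, and 11.85 to 11.96 and 11.23 to 11.39 at 6 h. The part of these cells or programmes in the results below was not tested.

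Between 6 and 10 h the effect of TGFβ1 changed in 444 genes, or 2.44% of those tested. It became higher in 202 (1.11%) and lower in 242 (1.33%), and by at least 2-fold in 8 and 26. The median change over all genes was 0.02. At 10 h treated cells differed from untreated cells in 1662 genes (9.14%), 923 higher (5.07%) and 739 lower (4.06%). At 6 h they differed in 2862 (15.7%), 1414 higher (7.77%) and 1448 lower (7.96%). At least 2-fold differences numbered 62 at 10 h and 175 at 6 h. The 444 genes became 270 without replicate 2 of the treated 10 h arrays, 284 without replicate 1 and 294 without replicate 2 of the untreated 10 h arrays. The 202 higher ones became 104 to 147 and the 1662 genes at 10 h 833 to 1677 with any 1 array left out, with the lowest counts without replicate 2 and without replicate 1 of the treated 10 h arrays.

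Most of the changes were losses of an earlier effect. Of the 444 genes, 382 had passed at 6 h and had a smaller effect or none past the test at 10 h: 220 of these had been higher in treated cells at 6 h and 162 lower. The 220 induced genes had a median effect of 0.25 at 10 h and 0.83 at 6 h, and the 162 repressed genes −0.03 at 10 h and −0.45 at 6 h. The effect no longer passed at 10 h in 227 of the 382, and in 155 it was reduced but still passed. The 227 were not sorted by their sign at 10 h, and some lay beyond 0, such as Serpini1 at 0.42 at 10 h and −0.62 at 6 h. A further 37 genes had an effect that passed at 10 h and not at 6 h. In 11 the effect passed at both times with opposite signs, in 4 it grew, and 10 passed at neither time on their own. With any 1 array left out the 382 became 237 to 322, the 37 became 12 to 24 and the 11 became 1 to 11, the lowest of them without replicate 2 of the treated 10 h arrays for the 382 and without replicate 1 of the untreated 10 h arrays for the others. Genes that pass at 6 h were selected for large differences on the 6 h arrays, which the change uses too, so these counts describe the classes and are no measure of how often an effect weakens.

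**Figure D1:**
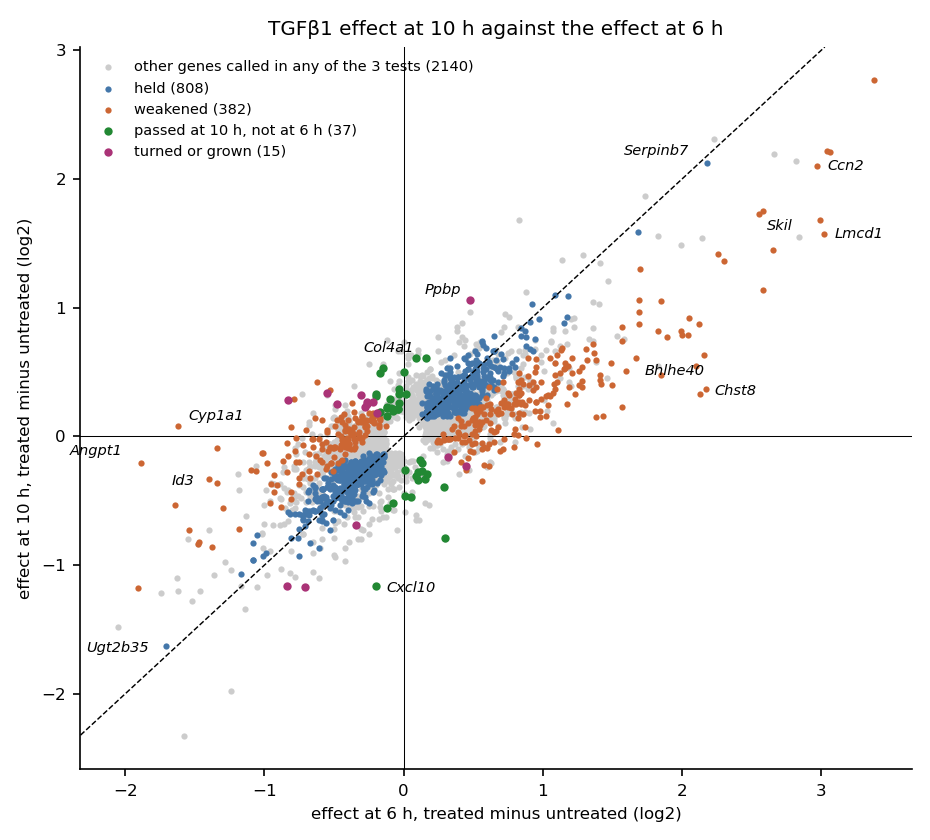
Effect of TGFβ1 at 10 h (y axis, treated minus untreated, log2) against the effect at 6 h (x axis, log2), 1 point per gene that passed at 10 h, at 6 h or for the change, coloured by class, with the line of equal effects dashed. The 10 changed genes that passed at neither time are among the grey points. The 808 held genes lie along the dashed line, and the 382 weakened genes lie towards or near the horizontal axis, where the effect at 10 h is 0, and outnumber the 37 that passed at 10 h and not at 6 h and the 4 that grew.

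Selection at 3 h, a time whose arrays the change does not use, also gave more losses than gains. Of 155 genes at least 2-fold higher in treated cells at 3 h (0.852% of those tested, where 15.3% passed in any direction), the effect fell between 6 and 10 h in 91 and rose in 0. Their median effect was 1.30 at 3 h, 1.06 at 6 h and 0.44 at 10 h. Of 77 genes at least 2-fold lower at 3 h (0.423%), the effect rose in 25 and fell in 0, with medians of −1.24, −0.64 and −0.24 at 3, 6 and 10 h. Of the 15413 genes that did not pass at 3 h, 50 rose and 24 fell. The times share 1 estimate of spread per gene.

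Persistence was counted apart from change. The effect passed with the same sign at both times in 1141 genes. In 808 of these the change did not pass and its 95% interval lay within −0.5 to 0.5, a factor of 1.41, and these were counted as held. Held genes had small effects, with medians of 0.33 at 10 h and 0.36 at 6 h for the 407 induced ones and −0.31 and −0.35 for the 401 repressed ones. The bound of 0.5 exceeds these medians in size, so a held effect could still have shrunk by much of its size. The receptor gene Acvr1, for example, was counted as held with 0.22 at 10 h and 0.52 at 6 h. The 808 became 427 without replicate 1 of the treated 10 h arrays and 478 or 474 without replicate 1 or 2 of the untreated 10 h arrays. In 174 genes the interval was wider and neither a change nor its absence was resolved.

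The change joins what treated and untreated cells did over the same 4 h. Treated cells at 10 h differed from treated cells at 6 h in 1980 genes (10.9%), 1066 higher (5.86%) and 914 lower (5.02%). Untreated cells at 10 h differed from untreated cells at 6 h in 1124 (6.18%), 505 higher (2.78%) and 619 lower (3.40%). The 1980 became 1044 without replicate 1 of the treated 6 h arrays and 1179 or 1152 without replicate 1 or 2 of the treated 10 h arrays. The 1124 became 312 or 470 without replicate 1 or 2 of the untreated 10 h arrays, and 537 or 587 without replicate 1 or 2 of the untreated 6 h arrays. At least 2-fold differences numbered 46 in treated and 2 in untreated cells. Of the 382 weakened genes, treated cells moved past the test in 315 and untreated cells in 95, both in 38. In 74 of the 382 untreated cells moved further than treated cells, 35 of the 220 induced and 39 of the 162 repressed genes.

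Pdgfc, Id3, Serpinb7 and Cxcl10 stand for an induction that weakened, a repression that weakened, an induction that held and a repression that passed at 10 h and not at 6 h, and were picked as examples after their values were seen. Pdgfc, which encodes a growth factor for mesenchymal cells, was at 9.77 and 9.70 in treated and 8.85 and 8.93 in untreated cells at 10 h, and at 10.35 and 10.34 in treated and 8.78 and 8.76 in untreated cells at 6 h. Treated arrays lay above untreated arrays at both times and were highest at 6 h. The effect was 0.85 at 10 h and 1.57 at 6 h, a change of −0.73 ± 0.08 (SE, limma, adjusted p = 7.22e-06).

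Id3, an inhibitor of basic helix-loop-helix factors and a direct target of BMP-activated SMADs, was at 10.33 and 10.46 in treated and 10.77 and 10.68 in untreated cells at 10 h. At 6 h it was at 8.83 and 8.91 in treated and 10.25 and 10.29 in untreated cells. Treated arrays were below untreated arrays at both times without overlap, and the gap was far wider at 6 h. The effect was −0.33 at 10 h and −1.40 at 6 h, a change of 1.07 ± 0.10 (SE, limma, adjusted p = 1.31e-06). Treated cells rose by 1.52 and untreated cells by 0.46 over these hours. The effect on Id3 had been 1.80 at 1 h and −0.74 at 3 h, so its sign turned between 1 and 3 h and the repression was largest at 6 h among the times measured.

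Serpinb7, a serine protease inhibitor of the clade B serpins, was at 11.29 and 11.23 in treated and 9.11 and 9.17 in untreated cells at 10 h, and at 11.27 and 11.30 in treated and 9.19 and 9.02 in untreated cells at 6 h. The change was −0.06 with a 95% interval from −0.35 to 0.22. Cxcl10, a chemokine of the interferon response, was at 5.97 and 5.83 in treated and 7.01 and 7.11 in untreated cells at 10 h, and at 7.14 and 7.31 in treated and 7.46 and 7.40 in untreated cells at 6 h. The arrays did not overlap at either time, but at 6 h they were close. The effect on Cxcl10 was 1.09 at 1 h, 1.76 at 3 h, −0.20 at 6 h and −1.16 at 10 h, with a change of −0.96 ± 0.13 (SE, limma, adjusted p = 1.23e-04). An early induction was thus followed by a repression of 2.24-fold at 10 h.

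**Figure D2:**
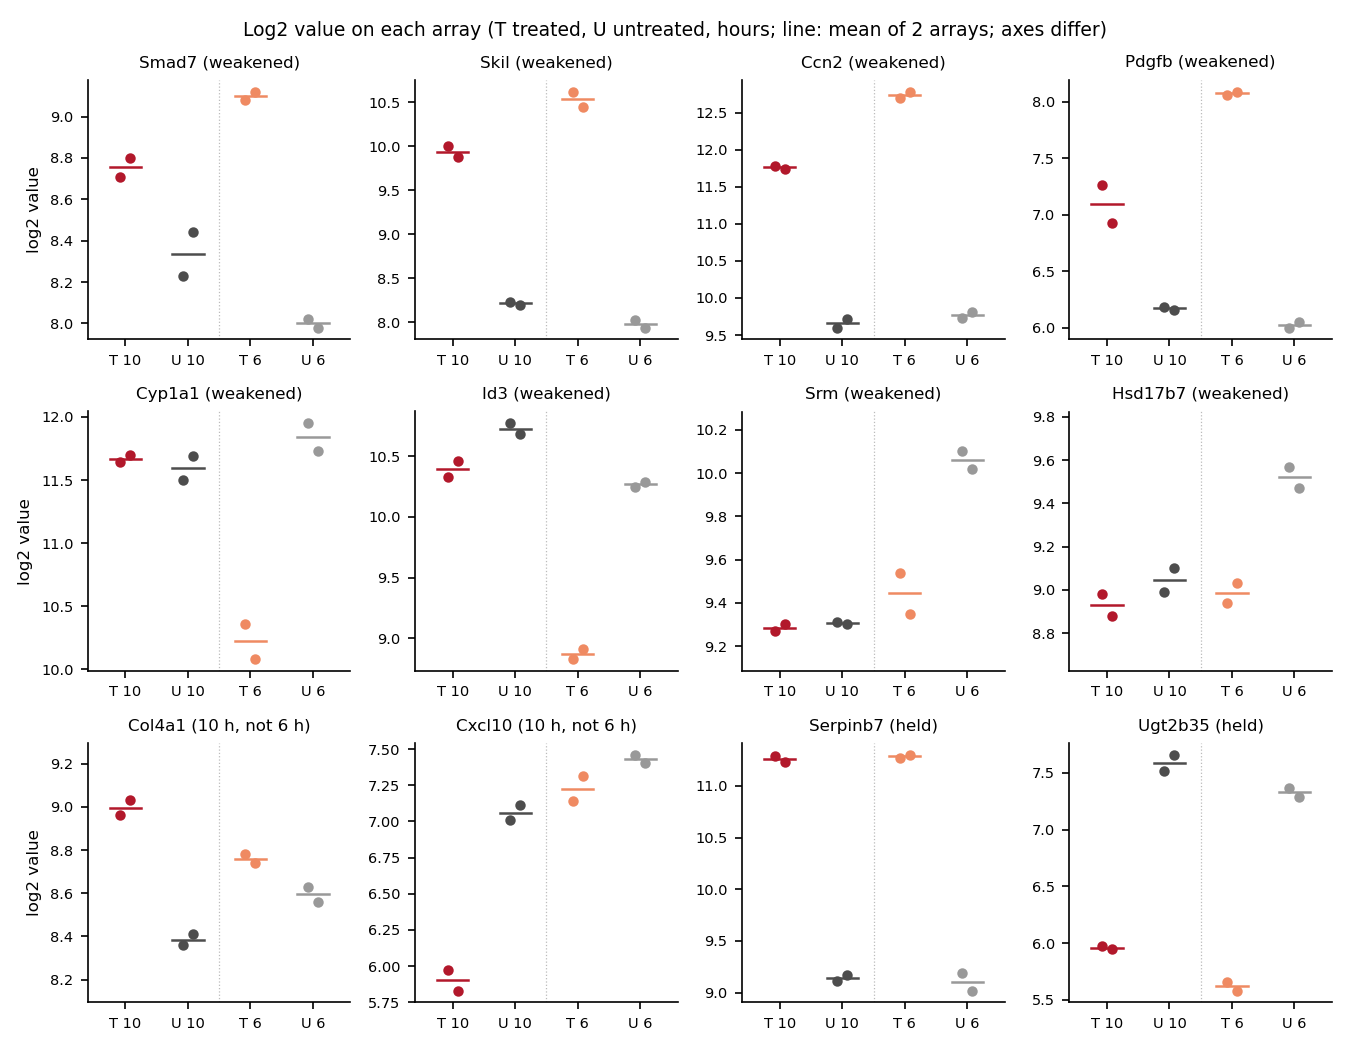
Log2 expression of 12 genes on each of the 8 arrays, with 1 point per array and a line at the mean of the 2 arrays, for treated and untreated cells at 10 h and at 6 h. The gap between treated and untreated arrays is narrower at 10 h in the weakened genes such as Smad7, Pdgfb and Id3, alike in Serpinb7 and Ugt2b35 and wider in Col4a1 and Cxcl10.

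The promoters of these 4 genes are shown because they belong to the 4 courses and can be set against motifs of factors that TGFβ signalling uses. Each runs from 250 bases before to 50 bases after the start of the gene, 300 bases 5′ to 3′ on the coding strand, from RefSeq on GRCm38.p6. Capitals mark matches on either strand of CAGAC, the core SMAD site, of GGCGCC, a BMP-SMAD element, of TGANTCA, the AP-1 site, and of GGAATG, the TEAD site. The windows are Pdgfc at chr3:81036166-81036465 on the plus strand, Id3 at chr4:136143572-136143871 on the plus strand, Serpinb7 at chr1:107422439-107422738 on the plus strand and Cxcl10 at chr5:92348840-92349139 on the minus strand.
Pdgfc: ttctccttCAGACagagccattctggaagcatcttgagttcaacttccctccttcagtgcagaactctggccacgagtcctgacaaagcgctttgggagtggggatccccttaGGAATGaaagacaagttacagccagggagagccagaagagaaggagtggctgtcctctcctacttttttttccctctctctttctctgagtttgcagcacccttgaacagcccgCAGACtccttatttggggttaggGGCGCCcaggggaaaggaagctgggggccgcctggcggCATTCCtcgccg
Id3: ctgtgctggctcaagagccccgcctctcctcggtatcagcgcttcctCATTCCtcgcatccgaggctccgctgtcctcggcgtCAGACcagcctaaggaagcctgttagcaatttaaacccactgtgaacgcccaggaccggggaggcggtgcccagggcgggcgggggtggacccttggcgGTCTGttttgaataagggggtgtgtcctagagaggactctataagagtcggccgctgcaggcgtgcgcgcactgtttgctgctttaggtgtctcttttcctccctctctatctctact
Serpinb7: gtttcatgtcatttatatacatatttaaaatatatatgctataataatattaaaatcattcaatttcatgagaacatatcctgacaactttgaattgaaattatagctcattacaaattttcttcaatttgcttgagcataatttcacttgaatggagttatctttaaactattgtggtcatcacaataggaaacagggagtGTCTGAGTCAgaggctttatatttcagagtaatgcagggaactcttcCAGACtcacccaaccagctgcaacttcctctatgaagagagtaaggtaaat
Cxcl10: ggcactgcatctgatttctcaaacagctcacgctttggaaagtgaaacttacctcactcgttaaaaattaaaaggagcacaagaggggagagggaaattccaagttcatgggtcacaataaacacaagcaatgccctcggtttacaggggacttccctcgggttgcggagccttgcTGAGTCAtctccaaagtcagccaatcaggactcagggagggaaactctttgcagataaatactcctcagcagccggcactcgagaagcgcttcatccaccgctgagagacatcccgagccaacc
Pdgfc held 2 matches of CAGAC, 1 of GGCGCC and 2 of GGAATG, Id3 held 2 of CAGAC and 1 of GGAATG, Serpinb7 held 2 of CAGAC and 1 of TGANTCA, which overlap in part, and Cxcl10 held 1 of TGANTCA. At least 2 matches of CAGAC were found in 24.7% of the 174 promoters available for the 220 weakened inductions, in 16.5% of the 121 available for the 162 weakened repressions, in 16.7% of the 30 available for the 37 genes that passed at 10 h and not at 6 h, in 18% of those of held genes and in 18% of the 14452 promoters of all genes tested. In the same order of these 5 sets, TGANTCA was found in 10.3%, 9.09%, 16.7%, 6.72% and 7.54%, GGAATG in 17.2%, 18.2%, 13.3%, 15.4% and 15.3%, and GGCGCC in 27.6%, 22.3%, 36.7%, 28.4% and 20.4%. These shares are descriptions of letters in a short window, with no test, and say nothing of binding.

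The feedback inhibitors and direct targets of SMAD signalling were the list with the highest share of changes. Of 27 measured members the effect fell in 10 and rose in 1, or 40.7% against 2.44% of all genes, and the median change was −0.24 against 0.02. At 10 h 11 members were higher and 2 lower in treated cells, and at 6 h 14 were higher and 2 lower. Across all genes 5.07% were higher and 4.06% lower at 10 h, and 7.77% and 7.96% at 6 h. The members whose effect fell were Ldlrad4, Spsb1, Bhlhe40, Ccn2, Skil, Smad7, Gadd45b, Cdkn2b, Tgfbi and Klf10, and the 1 whose effect rose was Id1. The list was compiled with results of these data known, so its direction is not independent evidence.

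Smad7, which blocks the receptors, was at 8.71 and 8.80 in treated and 8.23 and 8.44 in untreated cells at 10 h, and at 9.08 and 9.12 in treated and 8.02 and 7.98 in untreated cells at 6 h. Treated cells were lower at 10 h than at 6 h and untreated cells were higher, and both movements passed (−0.35 and 0.33). Its effect was 0.42 at 10 h and 1.10 at 6 h, a change of −0.68 ± 0.10 (SE, limma, adjusted p = 2.98e-04). Skil, the gene of SnoN, a SMAD corepressor, was at 10.00 and 9.88 in treated and 8.23 and 8.20 in untreated cells at 10 h, and at 10.62 and 10.45 in treated and 8.03 and 7.94 in untreated cells at 6 h. It thus remained well above untreated cells at both times. Its effect was 1.73 at 10 h and 2.55 at 6 h, a change of −0.83 ± 0.10 (SE, limma, adjusted p = 4.92e-05).

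Ldlrad4, whose product restrains phosphorylation of SMAD2 and SMAD3, was at 4.05 and 4.28 in treated and 2.88 and 3.17 in untreated cells at 10 h, and at 5.88 and 5.77 in treated and 3.39 and 3.11 in untreated cells at 6 h. Its effect was 1.14 at 10 h and 2.58 at 6 h, a change of −1.44 ± 0.22 (SE, limma, adjusted p = 5.41e-04). All of these levels lie below the gene median, and of its 3 other probe sets, which changed by −1.10 to −0.03, 2 passed. Spsb1, an adaptor of a ubiquitin ligase that targets the type II TGFβ receptor, had an effect of 0.48 at 10 h and 1.85 at 6 h and a change of −1.37. With the mean of its 4 probe sets the change was no longer past the test (adjusted p = 0.204, where the alternatives ran from 5.41e-05 to that value).

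Ccn2, which encodes a matrix-associated growth factor and is a target of SMAD3 and of YAP/TEAD, was at 11.78 and 11.74 in treated and 9.60 and 9.72 in untreated cells at 10 h. At 6 h it was at 12.70 and 12.78 in treated and 9.73 and 9.81 in untreated cells. Untreated arrays were nearly level between the times and treated arrays were lower at 10 h, still above every untreated array. Its effect was 2.10 at 10 h and 2.97 at 6 h, 4.28-fold and 7.81-fold, a change of −0.87 ± 0.08 (SE, limma, adjusted p = 1.52e-06). Bhlhe40, a transcriptional repressor, was at 9.16 and 9.13 in treated and 8.57 and 8.51 in untreated cells at 10 h, and at 10.33 and 10.41 in treated and 8.76 and 8.64 in untreated cells at 6 h. Its change was −1.06 ± 0.10 (SE, limma, adjusted p = 1.31e-06). Among the other members, Gadd45b, a stress sensor, changed by −0.63, the CDK inhibitor gene Cdkn2b by −0.52 and the zinc finger gene Klf10 by −0.46. In Klf10 treated cells moved by −0.06, which did not pass, and untreated cells rose by 0.40.

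**Figure D3:**
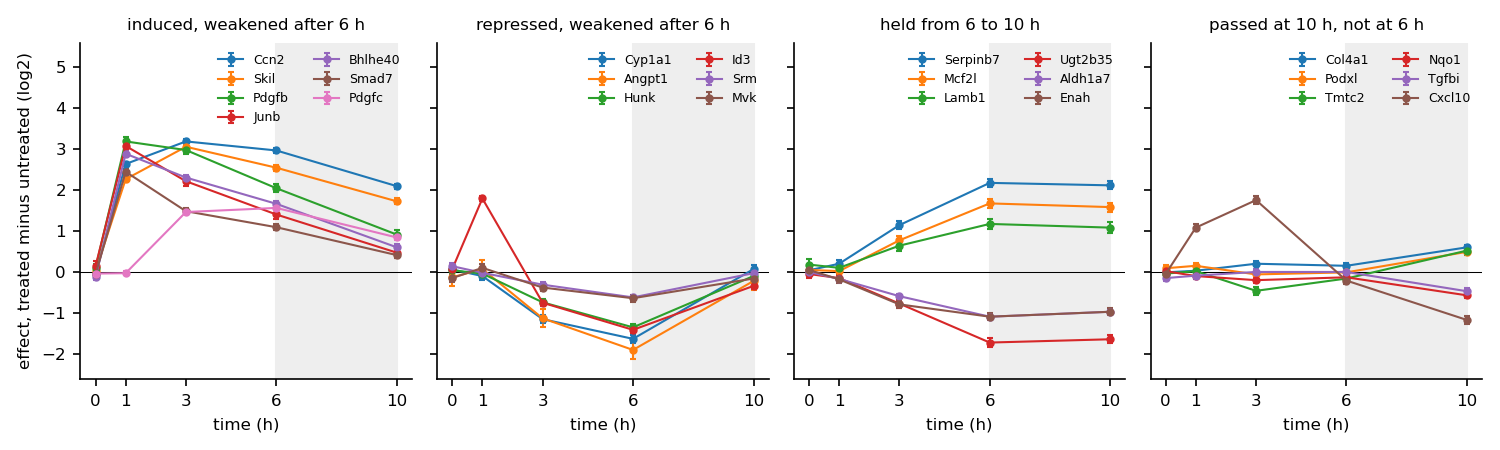
Effect of TGFβ1 (treated minus untreated, log2, with SE bars) at 0, 1, 3, 6 and 10 h for genes of 4 classes, with the span from 6 to 10 h shaded. The weakened inductions peak at 1 to 6 h and decline inside the shaded span. The weakened repressions return towards 0 inside it, with Id3 induced at 1 h. The held genes develop before 6 h and run level only inside the shaded span. The genes that passed at 10 h and not at 6 h lie near 0 at 6 h, with Cxcl10 induced at 1 and 3 h and Tmtc2 repressed at 3 h.

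The order of onset and decline differed between targets. Smad7 and Bhlhe40 had their largest effect at 1 h, at 2.45 and 2.89, and a smaller one at each later time. Junb, an AP-1 subunit, and Pdgfb followed the same course, at 3.08 and 3.19 at 1 h and 0.48 and 0.92 at 10 h. Ccn2 and Skil were highest at 3 h, at 3.19 and 3.06. Lmcd1 and P2ry14 were highest at 6 h, at 3.02 and 2.99, and their effects at 10 h were 1.57 and 1.68. The call of P2ry14, a receptor for nucleotide sugars with untreated levels below the gene median, was lost without replicate 1 of the treated 10 h, replicate 2 of the untreated 10 h or replicate 1 of the untreated 6 h arrays, with adjusted p up to 0.0558. These orders are descriptions, since effects at different times were not tested against each other except at 6 and 10 h.

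Of 26 measured ligands, receptors and SMADs of the TGFβ family, the effect rose in 1 and fell in 2, or 11.5% against 2.44% of all genes. The type I receptor gene Tgfbr1 was at 9.60 and 9.40 in treated and 9.30 and 9.20 in untreated cells at 10 h, and at 10.06 and 9.97 in treated and 9.21 and 9.35 in untreated cells at 6 h. Its effect was 0.25 at 10 h and 0.73 at 6 h. The type II receptor gene Tgfbr2 was at 10.39 and 10.25 in treated and 10.08 and 10.11 in untreated cells at 10 h, and at 9.86 and 9.96 in treated and 10.05 and 10.01 in untreated cells at 6 h. Its effect was 0.23 at 10 h and −0.12 at 6 h, so the transcripts of the 2 receptors of the complex changed in opposite directions, by −0.48 and 0.34. The BMP receptor gene Bmpr2 had an effect of 0.47 at 10 h and 0.89 at 6 h. The effect on the coreceptor gene Tgfbr3, −1.28 at 10 h and −1.52 at 6 h, was among those not resolved.

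Growth factors and receptor kinase ligands had the second highest share, with 4 rises and 6 falls of the effect among 33 genes (30.3%). Their median change was 0.05, and the count of 10 became 5 to 7 without any 1 of the 8 arrays. The falls were in Pdgfb, Egfr, Pdgfc, Igfbp3, Pdgfa and Errfi1 and the rises in Angpt1, Vegfc, Hbegf and Igfbp4. Pdgfb, a platelet-derived growth factor subunit, was at 7.26 and 6.93 in treated and 6.18 and 6.16 in untreated cells at 10 h, and at 8.06 and 8.09 in treated and 6.00 and 6.05 in untreated cells at 6 h. Its change was −1.13 ± 0.15 (SE, limma, adjusted p = 8.98e-05), and the effect fell in the 3 PDGF genes Pdgfb, Pdgfc and Pdgfa, the last by 0.32. Egfr, the EGF receptor, changed by −0.80, but its 7 probe sets disagreed, from −0.80 to 0.26, and with their mean the change did not pass (adjusted p = 0.491, where the alternatives ran from 2.32e-05 to that value).

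Angpt1, a ligand of the endothelial receptor TIE2, was at 6.37 and 6.60 in treated and 6.88 and 6.51 in untreated cells at 10 h, and at 5.26 and 4.82 in treated and 6.99 and 6.87 in untreated cells at 6 h. Groups overlapped at 10 h and were far apart at 6 h. Its effect was −0.21 at 10 h and −1.89 at 6 h, a change of 1.67 ± 0.31 (SE, limma, adjusted p = 0.00337). Vegfc, a lymphatic growth factor, had an effect of −0.43 at 10 h and −0.81 at 6 h, and Hbegf, an EGF receptor ligand, −0.16 at 10 h and −0.50 at 6 h. The binding protein gene Igfbp3 was at 9.62 and 9.54 in treated and 8.25 and 8.30 in untreated cells at 10 h. At 6 h it was at 9.79 and 9.73 in treated and 8.06 and 8.05 in untreated cells. It thus lost part of its induction and kept the rest (1.30 at 10 h, 1.70 at 6 h).

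The 3 Id genes on the list of BMP-SMAD targets all rose relative to untreated cells after 6 h, as 3 of 20 members (15%) with 0 falls, a count that ran from 1 to 3 with any 1 of the 8 arrays left out. Id1 had an effect of 0.14 at 10 h and −0.17 at 6 h, a change of 0.31, and Id2 had −0.20 at 10 h and −0.75 at 6 h, a change of 0.55 ± 0.14 (SE, limma, adjusted p = 0.0317). The call of Id2 is weak, since it was lost without any 1 of the 8 arrays, with adjusted p up to 0.177, and that of Id1 was lost without replicate 2 of the treated 10 h or replicate 1 of the treated 6 h arrays, with adjusted p up to 0.124 over all alternatives. The 2 other probe sets of Id2 changed in the same direction, by 0.15 to 0.74, and 1 of them passed. Over these hours Id2 rose by 1.37 in treated and by 0.82 in untreated cells.

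The AP-1, EGR and related immediate early genes split, with 3 rises and 2 falls of the effect among 35 (14.3%), and with 1 array left out these 5 became 2 to 4. Junb was at 7.60 and 7.60 in treated and 7.16 and 7.09 in untreated cells at 10 h, and at 8.36 and 8.42 in treated and 7.07 and 6.90 in untreated cells at 6 h, a change of −0.93 ± 0.17 (SE, limma, adjusted p = 0.00236). Zfp36l1, an mRNA decay factor, changed by −0.31, and Fosl1, another AP-1 subunit, by 0.68. Both calls were lost without some arrays, that of Zfp36l1 without replicate 2 of the treated 10 h, replicate 2 of the treated 6 h or replicate 1 of the untreated 10 h arrays (adjusted p up to 0.0941), and that of Fosl1 without replicate 1 of the treated 10 h, treated 6 h or untreated 10 h arrays (up to 0.253 over all alternatives). The rises also held Btg2, an antiproliferative gene, at 0.42 and the ERK phosphatase gene Dusp6 at 0.28.

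Of 21 YAP/TEAD targets, 11 were higher in treated cells at 10 h and 9 at 6 h, against 5.07% and 7.77% of all genes. At either time 0 of these targets were lower. The effect fell in 2 and rose in 1 (14.3%). Ccn2, which is on the SMAD list as well, and the kinase gene Nuak2, with 0.50 at 10 h and 0.94 at 6 h, were the falls. Wwc1, which encodes the Hippo regulator KIBRA, was the rise, at 0.51, although with the mean of its 4 probe sets that change did not pass (adjusted p = 0.34, where the alternatives ran from 0.000905 to that value). Held members were Ajuba, Amotl1, Amotl2, Ankrd1 and Asap1, with effects of 0.37 to 0.77 at 10 h and 0.39 to 0.88 at 6 h.

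Actin and SRF targets, junction genes and extracellular proteases changed in some members. For the counts below, 5.07% of all genes were higher in treated cells at 10 h and 7.77% at 6 h. Of 33 actin and SRF targets 11 were higher at 10 h and 15 at 6 h, and the effect fell in 3 and rose in 1 (12.1% against 2.44% of all genes), and 8 were held. The falls were in Lmcd1, a LIM domain cofactor, at −1.45, in the troponin gene Tnnt2 at −0.83 and in Pdlim7 at −0.80. Of 30 genes of epithelial-mesenchymal transition and junctions 12 were higher at 10 h and 11 at 6 h, the effect changed in 4 (13.3%), and 7 were held. The junction genes Jup and Dsp lost part of their induction, by −0.59 and −0.50, and Dsg2 and Krt18 changed by 0.31 and 0.21. Of 19 proteases and inhibitors 6 were higher at 10 h and 5 at 6 h, the effect fell in 2 (10.5%), and 3 were held. Htra1, a secreted serine protease, and Plat, tissue plasminogen activator, changed by −1.20 and −0.64. Htra1 was at 7.70 and 7.68 in treated and 6.09 and 6.40 in untreated cells at 10 h, and at 8.73 and 8.73 in treated and 6.13 and 6.03 in untreated cells at 6 h, so its induction remained large.

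Genes of ribosome biogenesis and other MYC targets changed in 1 direction, with 5 rises and 0 falls of the effect among 33 (15.2%), and a median change of 0.18. With 1 array left out, 3 to 5 of these passed. Srm, the spermidine synthase gene, was at 9.27 and 9.30 in treated and 9.31 and 9.30 in untreated cells at 10 h, and at 9.54 and 9.35 in treated and 10.10 and 10.02 in untreated cells at 6 h. Treated and untreated arrays met at 10 h, where untreated cells were lower than at 6 h. Treated cells moved by −0.16, which did not pass, and untreated cells fell by 0.75. Over the list treated cells fell in 3 and rose in 0, with a median of 0.04, and untreated cells fell in 11 and rose in 0, with a median of −0.16. Across all genes 5.02% fell in treated and 3.40% in untreated cells. The pseudouridine synthase gene Dkc1 and the ribosome factor gene Rrp1b turned sign, with effects of 0.25 and 0.23 at 10 h and −0.26 and −0.28 at 6 h. Nop2 and Wdr12 changed by 0.35 each. Myc itself was held at an effect of 0.56 at 10 h and 0.48 at 6 h.

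Sterol synthesis genes changed in few members and remained lower in treated cells in several. For comparison, 4.06% of all genes were lower in treated cells at 10 h and 7.96% at 6 h, and 3.40% fell in untreated cells. Of 21 SREBP2 targets 8 were lower in treated cells at 10 h, with a median effect of −0.15, and 18 at 6 h, with a median of −0.42, and 0 were higher at either time. The effect rose in 3 (14.3%), Hsd17b7, Mvk and Fdft1, all enzymes of the pathway, and 7 were held. Mvk was at 7.16 and 7.27 in treated and 7.34 and 7.39 in untreated cells at 10 h, and at 7.22 and 7.17 in treated and 7.90 and 7.74 in untreated cells at 6 h. Over the list treated cells rose in 2 and fell in 0 and untreated cells rose in 0 and fell in 7, with medians of 0.02 in treated and −0.19 in untreated cells. The 3 calls were weak: with the mean of each gene's probe sets 0 of the 21 passed by limma, and 0 passed without replicate 1 of the treated 6 h, the untreated 10 h or the untreated 6 h arrays, while 11 rises and 0 falls had an unadjusted p under 0.05 in the full data. Pmvk, with −0.72 at 10 h and −0.75 at 6 h, was the held member with the largest effect at 10 h.

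**Figure D4:**
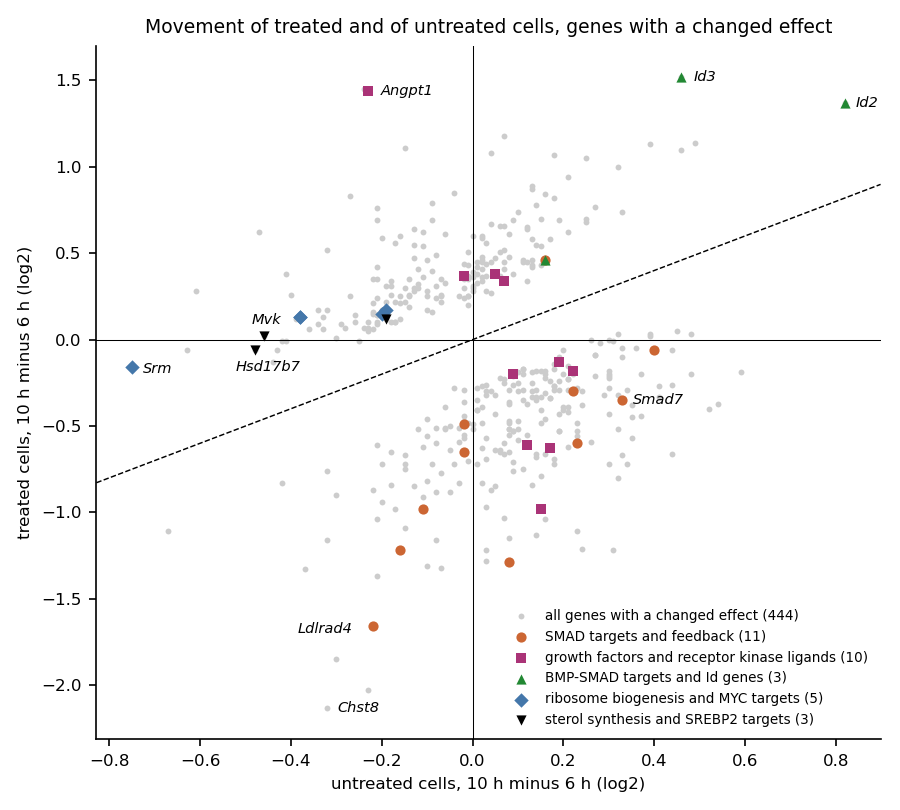
Movement of treated cells (y axis, 10 h minus 6 h, log2) against movement of untreated cells (x axis, 10 h minus 6 h, log2) for the 444 genes whose effect changed, with 5 lists marked and the line of equal movement dashed. SMAD targets such as Ldlrad4 lie low, where treated cells fell, and Id2 and Id3 lie high on the right, while Srm, Mvk and Hsd17b7 lie on the left near a treated value of 0, where untreated cells fell.

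FOXO targets and starvation genes changed in 5 of 28 (17.9%), with 4 falls and 1 rise, and in 3 to 6 with 1 array left out. Sesn3 and Ddit4, both inhibitors of mTORC1 signalling, no longer differed past the test at 10 h, with effects of 0.06 and −0.02, against 0.54 and 0.32 at 6 h. In Sesn3 treated cells fell by 0.21 and untreated cells rose by 0.27. Ccng2, a cyclin of resting cells, changed by −0.36 and the repressor gene Bcl6 by −0.63. Irs1, the insulin receptor substrate, changed by 0.29.

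Across all genes tested, 4.06% were lower in treated cells at 10 h and 7.96% at 6 h. Of 41 members of the G1/S and replication list 12 were lower in treated cells at 10 h and 25 at 6 h. The effect changed in 0 of these members by limma, with 7 rises and 1 fall at an unadjusted p under 0.05. With 2.44% of all genes changed, a count of 0 in a list of this size is near the background and says little about the list. Both arms fell over time, treated cells in 17 and untreated cells in 24, with medians of −0.17 and −0.26. Across all genes 5.02% fell in treated and 3.40% in untreated cells. Held members were 11 in number and included Rrm2, a ribonucleotide reductase subunit, at −0.34 at 10 h and −0.32 at 6 h, Tk1, thymidine kinase, at −0.52 and −0.37, and E2f1 at −0.38 and −0.37. Of 34 genes of G2/M and mitosis 10 were lower at each time, and 0 changed, with 2 rises and 5 falls unadjusted. Among 46 secreted plasma proteins, 5 were lower at 10 h and 6 at 6 h, and 0 changed, with 4 rises and 7 falls unadjusted. Counts of 0 changes in these lists are near the background of 2.44% too and say little about them.

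**Figure D5:**
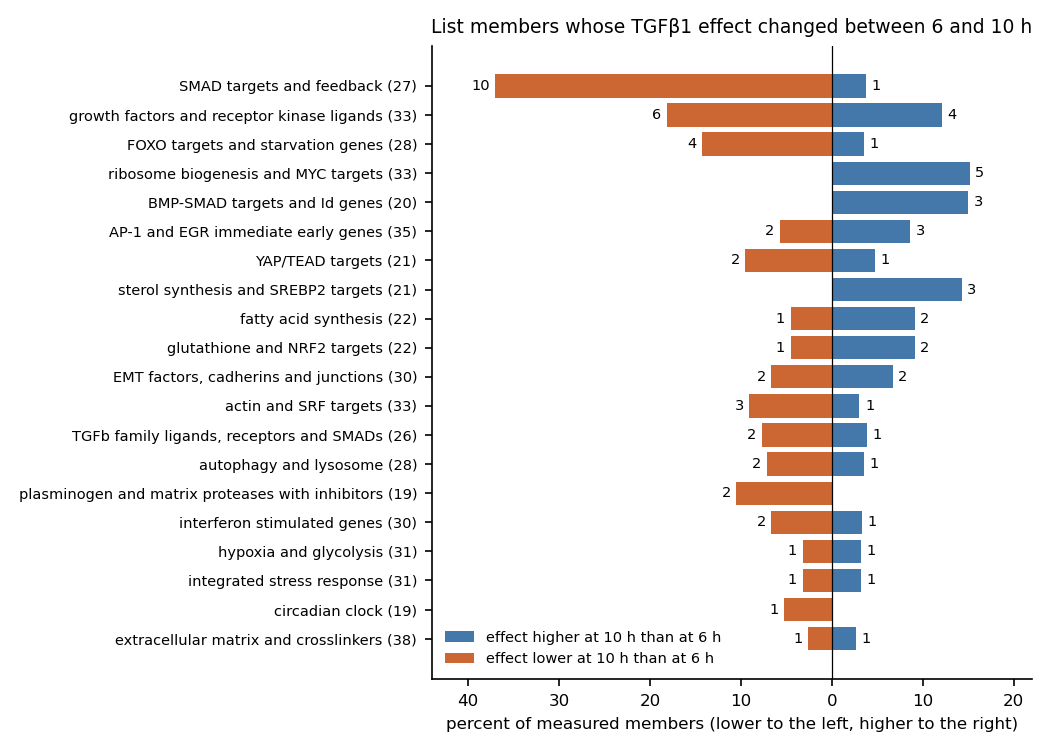
Percent of the measured members whose effect of TGFβ1 changed between 6 and 10 h, for the 20 lists of at least 8 measured genes with the highest shares, marker lists left out, with a lower effect drawn to the left and a higher effect to the right of 0. SMAD targets lead at 40.7%, nearly all to the left, and ribosome biogenesis genes, BMP-SMAD targets and sterol genes lie to the right only, against 2.44% for all genes tested.

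The largest rises of the effect were in genes that had been repressed at 6 h. Cyp1a1, the cytochrome P450 of the aryl hydrocarbon response, was at 11.64 and 11.70 in treated and 11.50 and 11.69 in untreated cells at 10 h, and at 10.36 and 10.08 in treated and 11.95 and 11.73 in untreated cells at 6 h. Treated and untreated arrays overlapped at 10 h and lay over 1 log2 unit apart at 6 h. Its effect was 0.08 at 10 h and −1.62 at 6 h, a change of 1.69 ± 0.14 (SE, limma, adjusted p = 7.27e-07). The kinase gene Hunk was at 8.94 and 9.03 in treated and 9.09 and 9.05 in untreated cells at 10 h, and at 7.89 and 7.85 in treated and 9.32 and 9.12 in untreated cells at 6 h, a change of 1.25. Tmem71, a membrane protein gene, kept part of its repression, with −0.53 at 10 h and −1.64 at 6 h, as did the zinc finger gene Zfp467, with −0.36 and −1.34. Mbl2, Serpini1 and Eml6 complete the 10 largest rises with Angpt1, Id3 and Fgfbp1. The calls of Mbl2, Serpini1 and Eml6 were each lost without 4 or 5 of the 8 arrays, with adjusted p up to 0.11, 0.319 and 0.216 over all alternatives. Mbl2 averaged 3.16 to 3.95 and Eml6 4.22 to 4.83 over the 4 groups, below the gene median, and may be limited by background.

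The largest falls were in genes induced at 6 h. Chst8, a sulfotransferase gene of hormone glycans, was at 4.37 and 5.07 in treated and 4.32 and 4.39 in untreated cells at 10 h, and at 6.98 and 6.73 in treated and 4.74 and 4.62 in untreated cells at 6 h. The 10 h arrays overlapped and a treated array stood apart from its duplicate. Its effect was 0.37 at 10 h and 2.17 at 6 h, a change of −1.81 ± 0.26 (SE, limma, adjusted p = 2.24e-04). Pstpip1, a cytoskeletal adaptor, changed by −1.55, Vdr, the vitamin D receptor, by −1.34, Myzap, a junction-associated protein, by −1.28 and Klhdc8a by −1.26. Vdr and Myzap no longer differed past the test at 10 h, with effects of 0.23 and 0.16 against 1.57 and 1.43 at 6 h. The probe set assigned to Trbv1, a T cell receptor segment, changed by −1.80 while the other probe set of that name changed by 0.02, so which transcript it reads is not settled by these values. Untreated Chst8, Pstpip1, Vdr, Klhdc8a and Trbv1 lay below the gene median, as did untreated Lmcd1 and Spsb1.

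The 37 genes whose effect passed at 10 h and not at 6 h were 21 higher and 16 lower in treated cells. Of these, 18 had passed at 3 h already (15.3% of all genes did), 15 of them with the opposite sign and 3 with the same sign as at 10 h, so not all were first affected after 6 h. Among those of opposite sign, the effect at 3 h was −0.70 in Irs1, 0.56 in Herpud1, −0.54 in B4galt6 and −0.45 in Tmtc2, and at 10 h 0.21, −0.21, 0.29 and 0.53 in the same genes. The genes named here besides the largest were picked after their values were seen. Col4a1, a basement membrane collagen chain, was at 8.96 and 9.03 in treated and 8.36 and 8.41 in untreated cells at 10 h, and at 8.78 and 8.74 in treated and 8.63 and 8.56 in untreated cells at 6 h. Its effect was 0.61 at 10 h and 0.16 at 6 h, a change of 0.45 ± 0.09 (SE, limma, adjusted p = 0.00525). With the mean of its 2 probe sets the change did not pass (adjusted p = 0.119, where the alternatives ran from 0.00279 to that value). It was also higher at 3 h, at 0.21. The other 5 with the largest inductions of this kind were Morc4, Tmtc2, Podxl, Prdm16os and Sigirr, with effects of 0.37 to 0.61 at 10 h. The repressions were led by Cxcl10, Ccdc122, Nqo1, Acyp1, Notum and Tgfbi. Over the 4 groups Prdm16os averaged 2.20 to 2.69 and Ccdc122 3.15 to 3.94, well below the gene median, so both may be limited by background.

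Nqo1, a quinone reductase controlled by NRF2, was at 8.29 and 8.34 in treated and 8.82 and 8.92 in untreated cells at 10 h, and at 9.46 and 9.40 in treated and 9.57 and 9.52 in untreated cells at 6 h. It fell over time in both, by 1.11 in treated and by 0.67 in untreated cells, and the change of its effect was −0.44 ± 0.08 (SE, limma, adjusted p = 0.00441). Tgfbi, a matrix protein gene named for its induction by TGFβ in other cells, was at 7.34 and 7.25 in treated and 7.69 and 7.82 in untreated cells at 10 h, and at 7.85 and 7.71 in treated and 7.75 and 7.79 in untreated cells at 6 h. Treated arrays lay below untreated arrays at 10 h and on either side of them at 6 h. Among the 12 named genes that passed at 10 h and not at 6 h, the calls of Col4a1, Cxcl10 and Nqo1 held without each array in turn, and those of the other 9 were each lost without 2 to 7 of the 8 arrays, with adjusted p of at most 0.299 over all alternatives.

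Held effects did not change past the test, with an interval inside the stated bound, which is smaller than each of the effects named here. After Serpinb7, the largest held inductions were in Mcf2l at 1.59 at 10 h and 1.68 at 6 h, Krt7, a simple epithelial keratin, at 0.93 and 1.17, the laminin chain gene Lamb1 at 1.09 and 1.18, and the receptor gene Ephb6 at 1.10 and 1.09. Krt7 is the least certain of them, since its change of −0.24 has an interval from −0.49 to 0.01 and passed without replicate 1 of the untreated 6 h arrays (adjusted p = 0.033, where the alternatives ran from that value to 0.905). Ugt2b35, a glucuronosyltransferase gene, was at 5.97 and 5.95 in treated and 7.52 and 7.66 in untreated cells at 10 h, and at 5.66 and 5.58 in treated and 7.37 and 7.29 in untreated cells at 6 h. Treated arrays were lower by a like amount at both times, and its change was 0.08 with an interval from −0.21 to 0.37. The other held repressions named were Iigp1, an interferon-induced GTPase, Enah, an actin regulator, Aldh1a7, an aldehyde dehydrogenase, and Acss2, which makes acetyl-CoA from acetate, with effects of −1.07 to −0.93 at 10 h and −1.17 to −1.01 at 6 h. Other probe sets of held genes varied more in places. The 5 others of Enah changed by −0.37 to 0.34 and the 3 others of Lamb1 by −0.02 to 0.35. The 2 others of Acss2 changed by 0.06 to 0.41 and the 1 other of Iigp1 by 0.14. In each of these 4 genes 0 of the others passed.

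Grown effects were found in 4 genes, which are named after their values were seen. Cxcl15, a chemokine gene, averaged 10.85 in treated and 12.02 in untreated cells at 10 h, and 11.32 in treated and 12.04 in untreated cells at 6 h, and treated arrays lay below all untreated arrays at both times. Its effect was −1.17 at 10 h and −0.71 at 6 h. Enpep, a peptidase that cleaves angiotensin, had −1.16 at 10 h and −0.84 at 6 h, and the MHC class I gene H2-Bl had −0.69 at 10 h and −0.34 at 6 h. Ppbp, another chemokine gene, was at 7.90 and 7.82 in treated and 6.86 and 6.75 in untreated cells at 10 h, and at 7.92 and 7.91 in treated and 7.45 and 7.41 in untreated cells at 6 h. Its effect of 1.06 at 10 h and 0.48 at 6 h grew as untreated cells fell by 0.63. Leaving out any of 6 of the 8 arrays left 1 or 2 genes in this class.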

How the data were processed

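Expression was measured on 20 Affymetrix arrays in 10 groups of 2, biological duplicates per the labels. The authors deposited a table of log2 values, made with RMA per the submitters' processing notes, which corrects background, normalizes arrays by quantiles and summarises the probes of a set. The software version, chip description and genome build were not given in the sources used here. The table held 45037 probe sets, of which 34945 named 1 gene, 932 several and 9160 none, per GEO's platform annotation. The last 2 kinds entered no gene test. Each of 18193 genes was represented by the probe set with the highest mean over all arrays, and 9010 genes had several. Symbols were updated through a RefSeq table, in which 162 were not found.

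Duplicate arrays correlated at 0.9958 to 0.9971 and shared at most 0.04% identical values, so each was counted as a sample of its own. At 0 h, where the labels call treated and untreated cells equivalent, limma passed 0 genes, with 740 at an unadjusted p under 0.05. The first and second principal components of the 20 arrays held 27.8% and 22.1% of the variance. The number of arrays limits the precision: the median standard error was 0.13 for an effect and 0.18 for a change, on 10 residual degrees of freedom. P-values measure the spread between these duplicates.

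limma 3.58.1 in R 4.3.3 fitted 1 mean per group to all 20 arrays with a variance trend (eBayes), and p-values were adjusted by Benjamini-Hochberg over all genes within a comparison. The fit was tested on simulated data. Of 1117 members of 41 gene lists, 1051 were measured, and a gene can be on several lists. Named genes were the 10 largest rises and falls whose treated-minus-untreated differences did not overlap between the times, the 6 largest effects in each direction that passed at 10 h and not at 6 h, the 5 largest held in each direction, up to 3 genes with the lowest adjusted p in each of the 8 lists of at least 8 measured genes that changed most often, and Smad7, Skil and Ccn2. Unnamed gene models were left out of the first 3 parts, and 1 further gene of the rule was not analysed here. Other genes were named as members of lists or after their values were seen. The comparison, the members and the lists were chosen with earlier results of these data known. The alternatives were other scalings, array weights, other ways to join probe sets, no variance trend, fewer arrays, a replicate block, a stricter threshold and each array left out.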

Additional observations from a re-analysis of the deposited data

Results flagged for a closer look

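The effect of TGFβ1 differed between 10 and 6 h in 444 genes by the test of that difference, as described above. In 11 of them the effect passed the test at both times with opposite signs. The change was −0.68 in Plpp5, a lipid phosphatase gene, and −0.48 in Vamp8, a gene of vesicle fusion, both lower in treated cells at 10 h and higher at 6 h. Plpp5 was at 7.93 and 7.88 in treated and 8.15 and 8.13 in untreated cells at 10 h, and at 8.58 and 8.67 in treated and 8.18 and 8.18 in untreated cells at 6 h. Treated arrays lay below the untreated ones at 10 h and above them at 6 h, and untreated arrays were close together throughout. The other 9 were higher in treated cells at 10 h and lower at 6 h. These changed by 0.37 in 6030458C11Rik, 0.49 in Serpinb9b, 0.51 in Dkc1, 0.51 in Rrp1b, 0.53 in 5031439G07Rik, 0.63 in Map3k5, 0.73 in Rdh10, 0.89 in Cers6 and 1.11 in Fgfbp1.

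Cers6, which makes ceramides, was at 9.16 and 9.07 in treated and 8.74 and 8.80 in untreated cells at 10 h, and at 8.04 and 8.05 in treated and 8.65 and 8.53 in untreated cells at 6 h. Rdh10, a retinol dehydrogenase gene, was at 10.02 and 10.06 in treated and 9.72 and 9.85 in untreated cells at 10 h, and at 9.53 and 9.43 in treated and 10.04 and 9.87 in untreated cells at 6 h. In both genes treated arrays lay above all untreated arrays at 10 h and below them at 6 h. Fgfbp1, a carrier of fibroblast growth factors, was at 9.40 and 9.46 in treated and 9.14 and 9.17 in untreated cells at 10 h, and at 8.45 and 8.74 in treated and 9.36 and 9.50 in untreated cells at 6 h. With 1 array left out, between 1 and 11 genes met this description.

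Among 10092 probe sets that name no gene or several, which entered no gene test, the effect changed in 17 (6 higher, 11 lower), with 510 at an unadjusted p under 0.05. At 0 h, treated and untreated cells differed in 0 of them, with 447 at an unadjusted p under 0.05.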

How the results depend on the processing

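Of the 55 named genes whose change passed, 30 passed under every alternative run for them and without each array in turn (for 7 of these, which lie below the median level, the alternative of genes above it could not be run), 22 lost the test in some setting, 20 lost it without some array, and 0 changed sign. Of the 10 held genes named, 1 (Krt7) passed with an array left out and 0 in another setting. With the mean of the gene's probe sets the change passed in 287 genes (134 higher, 153 lower), weakened genes were 249, grown 2 and genes differing between untreated 10 and 6 h 660. Without the variance trend the change passed in 240 (91 higher, 149 lower), the effect at 10 h in 1099 and the difference between untreated times in 494, with 221 weakened, 10 passing at 10 h and not at 6 h, 1 grown, 5 turned and 508 held. At a threshold of 0.01 it was 236 (82 higher, 154 lower). Among genes above the median level 60 passed at 10 h and not at 6 h and 21 turned, and with the 8 arrays alone 17 turned. With 1 array left out, the change passed in 270 to 358 genes (104 to 147 higher, 166 to 226 lower), the effect at 10 h in 833 to 1677 and at 6 h in 2046 to 2791, treated times differed in 1044 to 1985 and untreated times in 312 to 1080. Weakened genes were then 237 to 322, genes passing at 10 h and not at 6 h 12 to 24, grown 1 to 3, turned 1 to 11 and held 427 to 661. The lowest count of changes came without replicate 2 of the treated 10 h arrays, and that of the effect at 10 h without replicate 1 of them. Genes induced or repressed at least 2-fold at 3 h lost effect in 78 to 93 and 17 to 23 cases. Other scalings moved the median of all genes by under 0.1 and changed the counts by under 1.5 times.

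Arrays of the same replicate number showed little pairing among the 4 groups at 6 and 10 h. Their deviations from the group means correlated between −0.053 and 0.093. The groups at the other times were not checked in this way, so a shared replicate batch is not excluded. With a replicate block the change passed in 500 genes, 232 higher and 268 lower, against 444 without it. Duplicate arrays leave small effects and genes below the median level least certain, and the cause of the differences between settings was not tested.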

Other observations

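Several further genes changed that no list placed among the leading groups; they were picked after their values were seen. Oasl2, an interferon-induced gene, was at 5.95 and 5.91 in treated and 5.19 and 5.14 in untreated cells at 10 h, and at 6.75 and 6.71 in treated and 4.99 and 4.70 in untreated cells at 6 h, a change of −1.12, while of the 30 interferon stimulated genes 11 were lower in treated cells at 10 h and 11 at 6 h, where 4.06% and 7.96% of all genes were lower at 10 and 6 h. The effect changed in 3 of the 30 (10%, against 2.44% of all genes). The lysosomal gene Dram1 was at 10.47 and 10.40 in treated and 8.05 and 8.40 in untreated cells at 10 h, and at 11.26 and 11.26 in treated and 8.25 and 8.17 in untreated cells at 6 h, a change of −0.84. Wipi1, which acts in autophagosome formation, changed by −0.51 and the sialidase gene Neu1 by 0.42.

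Hypoxia and glycolysis genes rose over time in both arms, in 17 of 31 in treated and in 14 of 31 in untreated cells, with medians of 0.21 in treated and 0.15 in untreated cells, where 5.86% of all genes rose in treated and 2.78% in untreated cells. In treated cells 10 of the 31 were lower at 10 h and 15 at 6 h, where 4.06% and 7.96% of all genes were lower. The effect changed in 2 of the 31 (6.45% against 2.44% of all genes), Hk2 (0.38) and Hif1a (−0.36). In Hif1a treated cells moved by 0.03, which did not pass, and untreated cells rose by 0.39. Elovl6, an elongase of fatty acids, changed by 0.84, from arrays at 10.09 and 10.08 in treated and 10.30 and 10.39 in untreated cells at 10 h and at 9.59 and 9.53 in treated and 10.67 and 10.66 in untreated cells at 6 h. Cth, an enzyme of cysteine synthesis, changed by 0.89 and the NRF2 target Abcc4 by 0.67. Ceruloplasmin (Cp), a copper-carrying plasma protein, had an effect that passed at 10 h and not at 6 h, 0.33 at 10 h and −0.20 at 6 h.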
